A study of Mus musculus with 200 samples.

Results

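The interferon-stimulated genes Irf7, Usp18, Isg15, Ifit1, Ifit3, Oasl2, Bst2, Rtp4 and Ifi27 were followed in the mouse brain after a single closed-head injury (CHI). They were picked out of the count table by gene symbol and make up 9 of the 56941 genes in the count table. Bulk RNA sequencing was done on 1 brain hemisphere from each of 200 mice. In CHI the closed head was struck once, and in sham surgery the procedure stopped after the skin had been opened under anaesthetic. Brains were taken 9, 24 or 72 h later after perfusion with saline. Because surgery was done in the morning, the 9 h collection fell at another time of day than those at 24 and 72 h. The strain label was C57BL/6J for 61 mice, IL-1R1 gKO for 55, IL-1R1 eRestore for 50 and IL-1R1 nRestore for 34, and the labels do not explain the last 3 names.

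At 9 h there were 15 CHI and 6 sham C57BL/6J mice, 13 and 6 mice labelled gKO, 12 and 6 labelled eRestore, and 6 and 4 labelled nRestore. At 24 h the corresponding numbers were 14 and 6, 12 and 6, 9 and 5, and 8 and 5. At 72 h they were 14 and 6, 12 and 6, 12 and 6, and 6 and 5. Both sexes were present in every group except nRestore at 72 h, where all mice were male, and ages ran from 3.3 to 7.67 months. Total estimated counts per mouse ran from 14857985 to 57355676, so that 3 counts, the limit that a count of 0 allows, corresponded to 0.0523 CPM (counts scaled to a common library size) in the deepest library and 0.202 CPM in the shallowest. Il1r1, the gene of the interleukin-1 receptor named in the strain labels, was at 10.2 ± 2.50 CPM (mean ± SD, n = 55) in mice labelled gKO and at 5.76 ± 2.00 CPM (n = 61) in C57BL/6J mice, so its gene-level count was not lower in mice with the knockout label. Which exons the reads came from was not examined, and these strains are therefore named below as labelled. The mice came from several experiments, and no experiment at 9 h was shared with 24 or 72 h, so that 9 h and its experiments cannot be told apart in a comparison with the later time points.

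Type I interferons are secreted when a cell senses foreign or misplaced nucleic acid, and they act through a shared receptor whose kinases activate transcription factors. These bind the interferon-stimulated response element (ISRE) in the promoters of many antiviral genes. In the brain, microglia, astrocytes, endothelial cells and neurons can all respond, and such genes are read as markers of interferon signalling in injury, infection and ageing.

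The promoters were searched for the ISRE, and the stretches with a match are shown because this is the element named above. RefSeq promoter windows of 300 bases, from 250 before to 50 after the annotated start (build GRCm38.p6), were found for 6 of the 9 genes. Ifi27, Rtp4 and Usp18 were not in this table. The ISRE core, searched as GAAANNGAAA on either strand, was found in 4 of the 6 and in 3.44% of all 32851 windows. These stretches are printed below 5′ to 3′ on the gene's strand, with the matches in capitals.
Ifit1 (chr19:34640745-34640853, plus strand): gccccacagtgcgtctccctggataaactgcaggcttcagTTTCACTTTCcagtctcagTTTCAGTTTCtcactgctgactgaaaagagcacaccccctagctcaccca
Ifit3 (chr19:34583333-34583456, plus strand): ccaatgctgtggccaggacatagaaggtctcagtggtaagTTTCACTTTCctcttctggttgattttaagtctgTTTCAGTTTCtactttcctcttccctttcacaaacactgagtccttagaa
Isg15 (chr4:156200835-156200936, minus strand): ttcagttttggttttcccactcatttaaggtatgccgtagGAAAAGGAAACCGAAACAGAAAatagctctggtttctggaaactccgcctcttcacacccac
Bst2 (chr8:71537547-71537642, minus strand): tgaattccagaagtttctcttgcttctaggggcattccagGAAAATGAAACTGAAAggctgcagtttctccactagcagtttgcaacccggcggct
Ifit1 and Ifit3 each held 2 separate matches on the other strand, beginning at -104 and -85 in Ifit1 and at -156 and -122 in Ifit3. The same pair of 10-base matches occurs in both, in the same order. In Isg15, 3 overlapping matches began at -78, -72 and -66, and in Bst2 2 overlapping matches began at -130 and -124. The interferon-gamma element GAS, searched as TTCNNNGAA, began at -136 in Bst2, overlaps the first ISRE match there by 3 bases, and was found in 8.3% of all windows. Neither motif was found in the windows of Irf7 and Oasl2, which says only that these letters are not in those 300 bases.

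The genes themselves lie on 8 chromosomes (GRCm39), with only Ifit1 (chr19:34618271-34632174) and Ifit3 (chr19:34560899-34566443) as neighbours. Ifi27 (chr12:103392254-103407799) overlaps Ifi27l2a on the other strand, Irf7 (chr7:140842619-140846398) overlaps Phrf1, and Rtp4 (chr16:23337811-23432972) overlaps Masp1. Ifit1 overlaps Ifit1bl2, Isg15 overlaps Gm46878 and Usp18 overlaps Gm44148, also on the other strand. Rtp4 overlaps Gm45338 on its own strand. The strand setting of the counting is not given in the sources used here, so reads of such partners may not be told apart. Oasl2 (chr5:115034997-115050295) and Bst2 (chr8:71986895-71990114) overlap no other annotated gene. Ifit3 had a fractional count in all but 2 of the 200 mice, as happens when reads fit more than 1 gene, and its close copy Ifit3b was therefore also counted together with it.

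All 9 genes were detected in sham and in CHI mice, most of them at low level. Per unit of transcript length, Ifi27, which encodes a small mitochondrial protein of the interferon-alpha-inducible family, stood highest at 51.1 ± 13.9 TPM (transcripts scaled for length and library size, mean ± SD, n = 200). Ifit3 followed at 10.9 ± 2.99 TPM, and Bst2 at 5.88 ± 2.66 TPM. Isg15, Rtp4, Oasl2, Ifit1, Irf7 and Usp18 lay between 3.68 ± 2.08 and 1.01 ± 0.475 TPM in that order, and from Bst2 downward each gene differed from the next by less than the SD of the higher one. The median estimated count per mouse was 317.5 for Ifi27 and 178.7 for Ifit3. It was 15 for Usp18 and 17 for Isg15, which was at 0 in 1 mouse, so counting error weighs more in these. A change in a bulk hemisphere may come from fewer cells or from less RNA per cell, and these cannot be told apart.

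**Figure D1:**
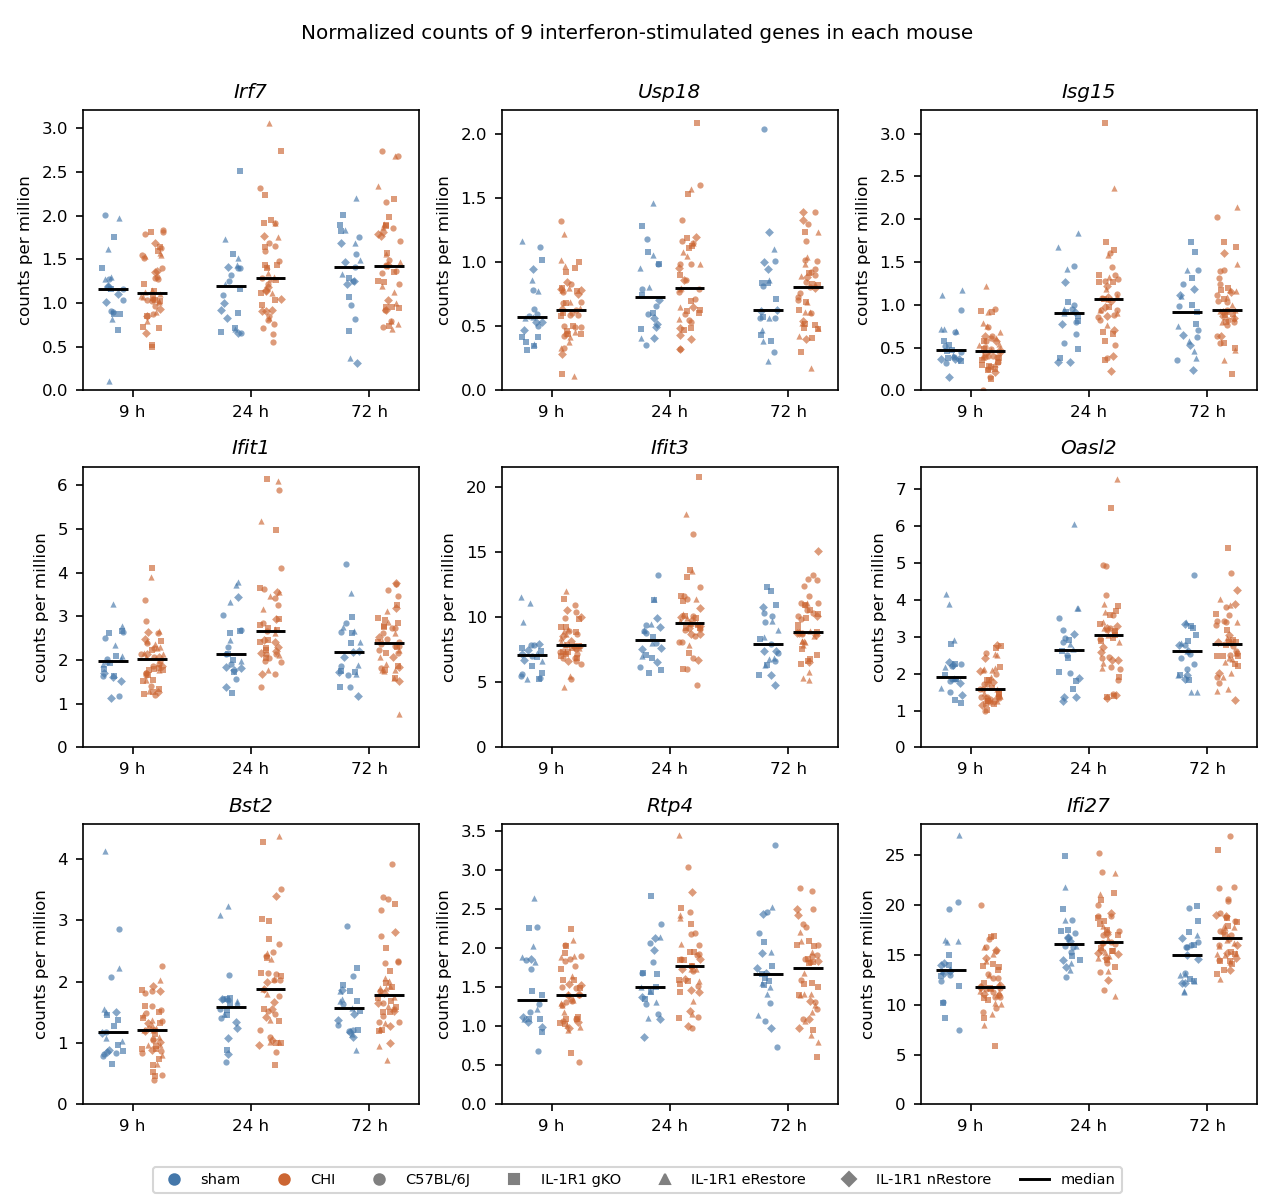
Level in CPM (vertical axes) of each of the 9 genes in every mouse, by hours after surgery, with sham mice in blue and CHI mice in orange, the marker shape giving the strain and the black line the group median. CHI and sham mice overlap in all 9 genes at each time point, for example between 7.46 and 20.0 CPM for Ifi27 at 9 h.

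Few of the 9 genes passed a test of CHI against sham mice. Over the 4 strains (46 CHI and 22 sham mice at 9 h, 43 and 22 at 24 h, 44 and 23 at 72 h), 1 of 27 tests passed an adjusted p of 0.05 in edgeR's quasi-likelihood test, and it was a fall, of Oasl2 at 9 h. DESeq2 also called 1 of 27. The members stood at 3 above and 6 below 0 at 9 h with a median log2 fold change of -0.09, at 8 above and 1 below at 24 h with a median of 0.08, and at 8 above and 1 below at 72 h with a median of 0.13. Of all genes tested, 26.5% were called at 9 h, 1.96% at 24 h and 0.717% at 72 h. The single call among the 9 members at 9 h was thus below that background. An unadjusted p under 0.05 in edgeR was found for 3, 0 and 2 of the 9 members at 9, 24 and 72 h, beside 36.7%, 14.9% and 7.67% of all genes. The standard errors of the 9 genes at 9 h ran from 0.08 to 0.17 on the log2 scale, against a median of 0.06 over all genes. Most of the members have few counts, and the part of this in the standard errors was not tested.

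Irf7, the transcription factor that amplifies the interferon response, differed between CHI and sham mice by a log2 fold change of 0.01 at 9 h (95% interval -0.25 to 0.27, edgeR adjusted p = 0.958), 0.10 at 24 h and 0.10 at 72 h. Its level in CHI mice at 9 h was 1.19 ± 0.357 CPM and in sham mice 1.17 ± 0.428 CPM. Usp18, the protease that removes ISG15 from proteins and damps the receptor, gave 0.03 (-0.28 to 0.33, edgeR adjusted p = 0.927), 0.09 and 0.12. For both regulators the intervals at 9 h lie between -0.28 and 0.33.

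Isg15, the ubiquitin-like protein that is joined to other proteins in antiviral defence, gave -0.18 at 9 h (-0.51 to 0.15, edgeR adjusted p = 0.484), 0.08 at 24 h and 0.19 at 72 h. Ifit1, which binds viral RNA that lacks host cap marks, gave -0.01, 0.28 and 0.11. Its value at 24 h had an interval of 0.00 to 0.55 and did not pass (edgeR adjusted p = 0.341).

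Ifit3 was the member with the highest log2 fold change at 9 h over the 4 strains. CHI mice ran from 4.64 CPM through a median of 7.83 to 12.0 CPM (n = 46), and sham mice from 5.24 through 7.11 to 11.5 CPM (n = 22). CHI mice stood higher in the middle of the range, and the 2 groups overlapped over nearly all of it. The log2 fold change was 0.18 (SE 0.08, 0.03 to 0.33, edgeR adjusted p = 0.0679), which missed the threshold. With Ifit3 and Ifit3b summed it was 0.17 and passed (edgeR adjusted p = 0.0443). Without 1 sham mouse that stood apart at 9 h, described further on, it was 0.21 and passed as well (edgeR adjusted p = 0.0292). At 24 and 72 h it was 0.16 and 0.14 and did not pass.

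Oasl2, an oligoadenylate synthetase-like protein with antiviral activity, was the member that fell over the 4 strains. At 9 h CHI mice ran from 0.988 CPM through a median of 1.58 to 2.78 CPM, and sham mice from 1.21 through 1.91 to 4.17 CPM. CHI mice lay lower at the bottom, middle and top of the range, with broad overlap. The log2 fold change was -0.30 (SE 0.10, -0.50 to -0.11, edgeR adjusted p = 0.0172). It was 0.08 at 24 h and 0.13 at 72 h, neither of which passed. The 9 h value was -0.38 within the experiment eIL-1-76 (22 CHI, 9 sham), -0.45 within eIL-1-80 (12 CHI, 7 sham) and 0.0775 within TM-2-33 (12 CHI, 6 sham), and it passed the threshold in none of them. TM-2-33 held only gKO and nRestore mice, while eIL-1-76 and eIL-1-80 held C57BL/6J, gKO and eRestore mice. Each of these values combines strains, so strain and experiment cannot be told apart in them. The gKO mice, present in each of these experiments, were not tested within each one. The value over the 4 strains lost the call without the eRestore mice (-0.21, edgeR adjusted p = 0.193), without the C57BL/6J mice (-0.28, edgeR adjusted p = 0.149) and with gene-length offsets in DESeq2 (-0.29, DESeq2 adjusted p = 0.0864). Without the sham mouse that stood apart it was -0.26 and passed (edgeR adjusted p = 0.0446).

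Bst2, the tethering protein that holds budding virus at the cell surface, gave -0.22 at 9 h (-0.52 to 0.08, edgeR adjusted p = 0.318), 0.03 at 24 h and 0.25 at 72 h. The 72 h interval was 0.02 to 0.48 (edgeR adjusted p = 0.599). Rtp4, known as a receptor chaperone and as an inhibitor of viral replication, gave -0.09, 0.08 and -0.03 at the 3 time points. No value of these membrane-associated members passed.

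Ifi27 at 9 h ran from 5.87 CPM through a median of 11.8 to 20.0 CPM in CHI mice and from 7.46 through 13.5 to 27.1 CPM in sham mice. At 24 h the medians were 16.3 and 16.1 CPM, and at 72 h 16.8 CPM (12.6 to 27.0, n = 44) and 15.0 CPM (11.3 to 19.9, n = 23). CHI mice thus lay lower than sham mice at 9 h, level with them at 24 h and higher at 72 h, with overlap at each. The log2 fold changes were -0.20 (-0.38 to -0.03, edgeR adjusted p = 0.0852), -0.08 (-0.21 to 0.05, edgeR adjusted p = 0.608) and 0.18 (0.07 to 0.29, edgeR adjusted p = 0.158), none past the threshold.

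**Figure D2:**
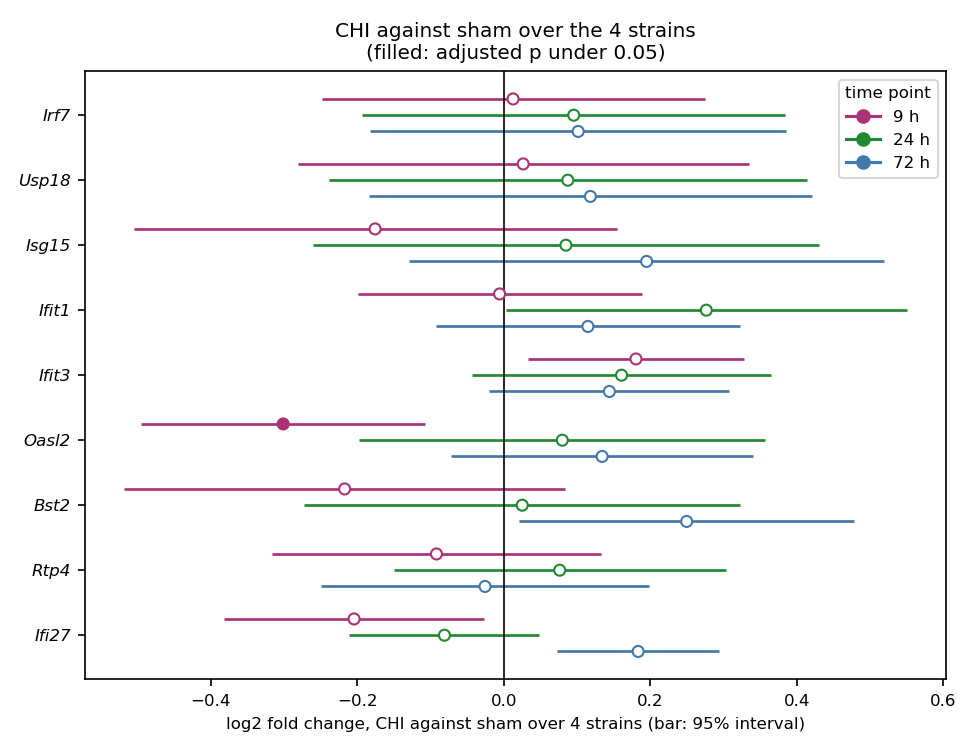
Log2 fold change of CHI against sham mice over the 4 strains (horizontal axis) for the 9 genes at 9, 24 and 72 h, with 95% intervals and filled points for an adjusted p under 0.05. Only Oasl2 at 9 h is filled, at -0.30, and most intervals include 0.

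The change of the CHI effect between time points was tested in a fit of all 200 mice. Ifi27 rose in this contrast: its CHI effect at 72 h exceeded that at 9 h by 0.39 (0.19 to 0.58, edgeR adjusted p = 0.0027). This was 1 of 9 members, beside 15.6% of all genes. The choroid plexus and ependyma markers, given further on, also differed between these times, with a median CHI effect of -1.44 at 9 h and 0.08 at 72 h, and their part in the contrast was not tested. Without the sham mouse with the highest sum of these markers the contrast was 0.32 (edgeR adjusted p = 0.0121). From 9 to 24 h no member was called by edgeR (12.8% of all genes were) and 1 had an unadjusted p under 0.05, beside 25.4% of all genes. From 24 to 72 h again none was called by edgeR (0.05% of all genes were) and 1 had such a p, beside 5.01%. DESeq2 was not run on these contrasts. Oasl2 came closest, at 0.44 from 9 to 72 h (edgeR adjusted p = 0.0516) and 0.39 from 9 to 24 h (edgeR adjusted p = 0.121). In direction, 9 of 9 members stood above 0 from 9 to 24 h and 8 of 9 from 9 to 72 h, with medians of 0.22 and 0.09, while the medians over all genes were at 0 to the second decimal. The 9 h samples share no experiment and no time of day with the others, so contrasts with 9 h carry both with them.

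Within single strains and time points, edgeR called 1 of 108 tests and DESeq2 1, and 11 (10.2%) had an unadjusted p under 0.05. The share of all genes with such a p ran from 2.25% to 27.8% over the 12 comparisons. In none of the 108 gene and group pairs were CHI and sham mice without overlap, beside 0.619% of such pairs over all 17995 genes with 10 or more counts in at least 22 mice. In C57BL/6J mice no member was called at 9, 24 or 72 h, beside 14.1%, 0.404% and 0% of all genes (0 genes at 72 h by edgeR and 41 by DESeq2). In mice labelled gKO none was called either, beside 0.199%, 0.0059% and 0%. In mice labelled eRestore 1 member, Ifi27, was called at 9 h and none at 24 or 72 h, beside 7.34%, 0% and 0.00605%. In mice labelled nRestore none was called, beside 0.608%, 0% and 0.0121%. The log2 fold changes ran from -0.63 to 0.63, and 66 of the 108 were above 0.

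The direction of the 9 genes is given here by strain as a description, since no difference between strains was called. At 9 h 3 were above 0 and 6 below in C57BL/6J mice, with a median of -0.08, and 4 above and 5 below in mice labelled gKO, with a median of -0.04. In mice labelled eRestore 9 of 9 were below 0, with a median of -0.36 beside -0.02 over all genes tested. In mice labelled nRestore 8 of 9 were above 0, with a median of 0.32 beside 0.01. At 24 h 7 of 9 were above 0 in C57BL/6J mice (median 0.13), 6 in gKO (0.10), 4 in eRestore (-0.04) and 8 in nRestore (0.20). At 72 h 5 of 9 were above 0 in gKO (0.05), 5 in eRestore (0.09) and 7 in nRestore (0.22). In C57BL/6J mice 9 of 9 were above 0 at 72 h, with a median of 0.25. Of these, 2 had an unadjusted p under 0.05, Ifit3 and Ifi27, beside 5.15% of all genes. The members share mice and move together between mice, as described further on, so 9 genes of one direction are not 9 separate observations.

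**Figure D3:**
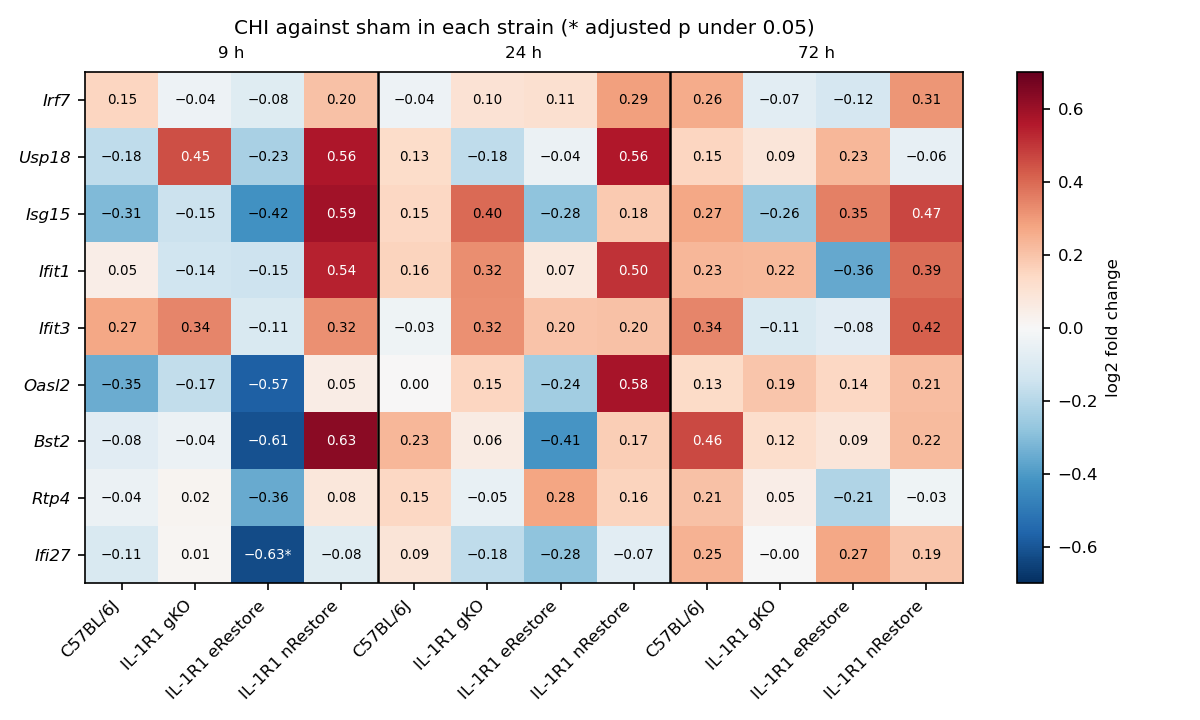
Heat map of the log2 fold change of CHI against sham mice for the 9 genes (vertical) in each strain and time point (horizontal), red above 0 and blue below, with an asterisk for an adjusted p under 0.05. The one asterisk is Ifi27 in eRestore mice at 9 h, at -0.63.

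Ifi27 in mice labelled eRestore fell at 9 h. The 12 CHI mice ran from 7.97 CPM through a median of 11.3 to 15.8 CPM, and the 6 sham mice from 13.4 through 16.3 to 27.1 CPM. Of the 12 CHI mice, 9 lay below every sham mouse. The log2 fold change was -0.63 (SE 0.15, -0.92 to -0.33, edgeR adjusted p = 0.0156). It was called under all 12 other settings run, at -0.74 to -0.42. Within the experiment eIL-1-76, 8 CHI mice at 7.97 to 13.0 CPM and 3 sham mice at 16.3 to 27.1 CPM did not overlap, as was the case for 4.49% of all genes in these mice, while within eIL-1-80, 4 CHI mice at 10.1 to 15.8 CPM and 3 sham mice at 13.4 to 16.4 CPM did.

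One eRestore sham mouse at 9 h, replicate 3, stood apart. It had the highest Ifi27 (27.1 CPM), Oasl2 (4.17 CPM) and Bst2 (4.13 CPM) of its group. Its 7 choroid plexus and ependyma markers (Ttr, Folr1, Kl, Clic6, Otx2, Foxj1 and Ccdc153) summed to 3530 CPM, against 14.7 to 444 CPM in the other 5 sham mice and 14.2 to 212 CPM in the 12 CHI mice. Without it the fall of Ifi27 was -0.42 (edgeR adjusted p = 0.029). Over the 4 strains at 9 h 6 of these 7 markers were called lower, with a median of -1.44, beside 26.5% of all genes called. In nRestore mice 6 of 7 were above 0, with a median of 0.91, and in each other strain 0 of 7 were. Within single strains none was called at 9 h. The sum ran from 8.03 through a median of 27.7 to 1655 CPM in CHI mice and from 14.7 through 42.5 to 3530 CPM in sham mice. Across the 68 mice at 9 h the log2 sum had a Pearson correlation of 0.43 with Bst2 and 0.39 with Ifi27, and of -0.10 to 0.10 with the other 7 members. How much of the fall of Ifi27 goes with the amount of choroid plexus in the hemisphere was not tested.

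In the other strains Ifi27 did not pass at 9 h. It was -0.11 in C57BL/6J mice (edgeR adjusted p = 0.684), 0.01 in mice labelled gKO (edgeR adjusted p = 0.992) and -0.08 in mice labelled nRestore (edgeR adjusted p = 0.844). The difference of the effect between eRestore and C57BL/6J mice was -0.44 (-0.90 to 0.01, edgeR adjusted p = 0.608), so a difference between strains was not detected, and the interval includes both 0 and a large one. Oasl2 at 9 h gave -0.35 in C57BL/6J mice, -0.17 in gKO, -0.57 in eRestore and 0.05 in nRestore, none past the threshold (edgeR adjusted p = 0.0851 in eRestore). Ifit3 gave 0.27, 0.34, -0.11 and 0.32 in the same order, again with none past it. In C57BL/6J mice Ifit3 and Ifit3b summed gave 0.35 and passed (edgeR adjusted p = 0.0227).

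**Figure D4:**
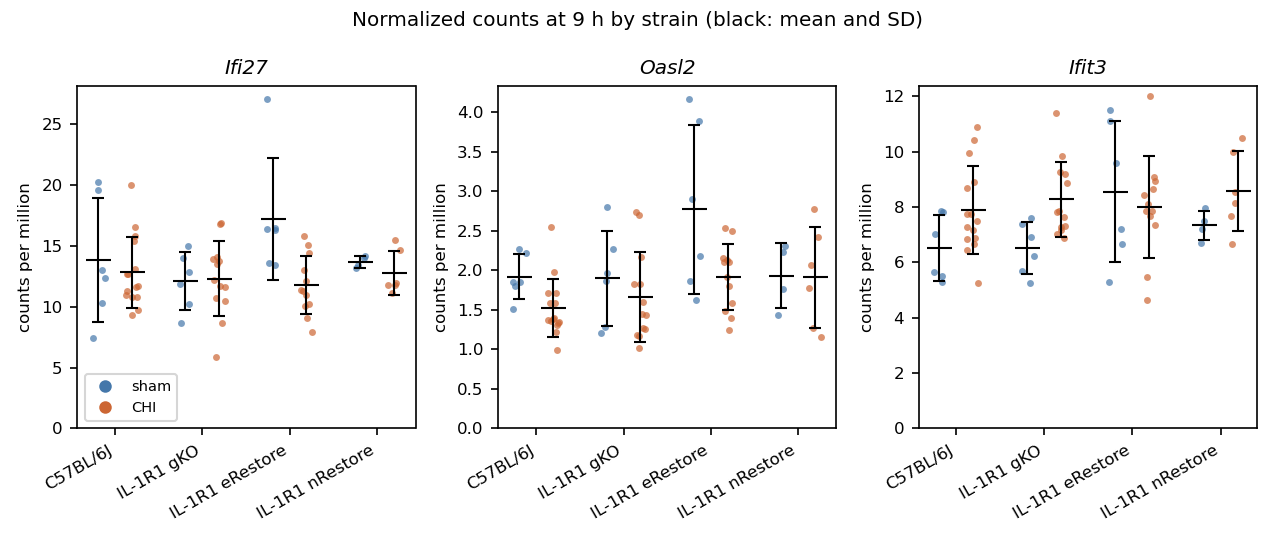
Level in CPM of Ifi27, Oasl2 and Ifit3 in each mouse at 9 h by strain, sham in blue and CHI in orange, with the mean and SD of each group. In eRestore mice 9 of 12 CHI mice lie below all sham mice in Ifi27, and the highest sham mouse is at 27.1 CPM.

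The effect of CHI was compared between each labelled strain and C57BL/6J mice for every member, in 81 tests that share the C57BL/6J mice of their time point. None was called by edgeR or by DESeq2, and 2 (2.47%) had an unadjusted p under 0.05, Bst2 in eRestore at 24 h (-0.80) and Ifit3 in gKO at 72 h (-0.46). Of all genes, 2.87% to 8.58% had such a p in these comparisons. The share of all genes called for gKO was 0%, 0.00541% and 0% at 9, 24 and 72 h, for eRestore 0.0107%, 0.0108% and 0%, and for nRestore 0.00534%, 0% and 0.00543%. The differences ran from -0.80 to 0.89. Sizes of this order could not be told from 0 with these group sizes. At 9 h nRestore and C57BL/6J mice shared no experiment.

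Sham mice of the labelled strains were compared with C57BL/6J sham mice in the same way. Of 81 tests none was called by edgeR or DESeq2. An unadjusted p under 0.05 was found for 4 (4.94%), beside 6.18% to 14.2% of all genes in these comparisons. The 4 were Ifit3 in eRestore at 9 h (0.38), Bst2 in eRestore at 24 h (0.62), Oasl2 in nRestore at 24 h (-0.74) and Ifi27 in eRestore at 72 h (-0.31). The shares of all genes called were 0.364%, 1.02% and 0.179% in gKO at 9, 24 and 72 h, 0.889%, 0.131% and 0.271% in eRestore, and 0.202%, 0.674% and 0.271% in nRestore. Without injury, the 9 genes were thus not shown to differ between strains. In direction, 8 of 9 members were above 0 in eRestore at 9 h, with a median of 0.32 beside 0.02 over all genes. In eRestore 8 were above 0 at 24 h (median 0.24) and 2 at 72 h (-0.17). In nRestore 2, 0 and 2 were above 0 at 9, 24 and 72 h (-0.07, -0.32 and -0.09). In gKO 3, 4 and 5 were (-0.09, -0.04 and 0.004). The part of the eRestore sham level in the 9 h fall of eRestore mice was not tested. The nRestore and C57BL/6J sham mice at 9 h shared no experiment.

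Sex was examined over the 4 strains as the CHI effect in males minus that in females. No member was called by edgeR at 9, 24 or 72 h, beside 0%, 0% and 0.00565% of all genes. Of 27 tests, 5 had an unadjusted p under 0.05, beside 2.1%, 5.2% and 3.71% of all genes at 9, 24 and 72 h. DESeq2 was not run on these contrasts. At 24 h 9 of 9 members were below 0 (-0.75 to -0.22, median -0.52, where that of all genes was near 0), and 4 of the 5 low p-values were there, for Irf7, Oasl2, Usp18 and Rtp4 (edgeR adjusted p 0.937 to 0.955). Irf7 at 24 h was at 1.47 CPM in female CHI mice (n = 29) and 0.96 CPM in female sham mice (n = 10), and at 1.21 CPM in male CHI mice (n = 14) and 1.37 CPM in male sham mice (n = 12). Oasl2 was at 3.35 and 2.45 CPM in females and at 2.46 and 2.83 CPM in males, in the same order. At 9 h 5 members were above 0 and 4 below, and at 72 h 8 above and 1 below. Sex was unevenly spread over experiments at 24 h: all 18 CHI mice of NiL-1-21 were female, and it held 1 sham mouse, also female. Without that experiment 9 of 9 members were again below 0 at 24 h (-0.72 to -0.02, median -0.35), none was called by edgeR, and 3 had an unadjusted p under 0.05.

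The level of the members also varied between experiments, which was not tested. A score per mouse, the mean of the 9 genes as log2 CPM, was 1.37 ± 0.395 in CHI (n = 43) and 1.18 ± 0.327 in sham mice (n = 22) at 24 h. Among the 24 h CHI mice it was 1.60 ± 0.381 in the experiment NiL-1-21 (n = 18), 1.29 ± 0.32 in eIL-1-38 (n = 17) and 1.04 ± 0.278 in NiL-1-24 (n = 8). The 5 mice with the highest scores, 2.42, 2.39, 2.10, 2.02 and 1.93, were all CHI mice of NiL-1-21, 4 at 24 h and 1 at 72 h. This experiment held 18 CHI mice and 1 sham mouse at 24 h. Without that experiment 8 of 9 members were above 0 at 24 h (-0.11 to 0.26, median 0.07) and 9 of 9 at 72 h (0.01 to 0.26, median 0.12), and none was called at either time. At 9 h the score was 0.849 ± 0.249 in CHI and 0.918 ± 0.318 in sham mice.

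The 9 genes varied together between mice. Over all 200 mice the 36 pairs had Pearson correlations of 0.251 to 0.66 with a median of 0.443, highest for Isg15 with Oasl2 (0.66) and Bst2 with Ifi27 (0.609), and lowest for Ifit1 with Ifi27 (0.251). After the mean of each strain, surgery, time point and experiment was subtracted, which left out mice alone in such a group, the 36 pairs ran from 0.016 to 0.515, with a median of 0.292. Oasl2 followed the mean of the other 8 most closely (0.728) and Irf7 least (0.431). These are descriptions over mice that share experiments and depth, and mice within a group are not separate conditions.

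Of the 17986 genes compared, the 10 most like the mean of the members over the 200 mice included Ifitm3 (Pearson 0.724), Efemp1 (0.711), Lyz2 (0.705), Ctsh (0.682), Cped1 (0.674), Ptgds (0.667), Islr (0.667), Serpinh1 (0.66) and Itih2 (0.659), against a median of 0.023 over all genes. Ifitm3 is itself an interferon-induced antiviral membrane protein, Lyz2 is a lysozyme of myeloid cells and Ptgds makes prostaglandin D in the meninges. Of the 10, 2 were also among the closest 10 after group and experiment means were removed, Ifitm3 (0.606) and Lyz2 (0.494). Among cell type markers, the mean of the members had a correlation of 0.622 with pericyte and fibroblast markers (0.449 after means were removed), 0.515 with microglia markers (0.219) and -0.382 with neuron markers. It was 0.541 (0.277) with the 2 of 11 blood leukocyte markers that were counted in enough mice. Of these 11, Siglech, which microglia also express, had a median count of 255.5, and the other 10 had medians of 0 to 6, with Ly6g and Cd3d at 0.

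Microglia markers also moved with injury. At 9 h 4 of 7 fell, P2ry12 (-0.62), Aif1 (-0.49), Tmem119 (-0.25) and Csf1r (-0.15), with a list median of -0.15, and at 72 h 5 of 7 rose, with a median of 0.20. All genes were called at 26.5% and 0.717% at these times. Oasl2 at 9 h had a Pearson correlation of 0.24 with the summed microglia markers, Isg15 of 0.41 and Ifi27 of 0.01 (68 mice). The other members lay between -0.05 and 0.20. The part of these markers in the changes of the members was not tested.

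The interferons themselves were close to absent from the counts. Of 21 interferon genes none passed the filter, each had a median count of 0, and the highest count in any mouse was 5, of Ifng. Ifnb1 was at 0 in all but 2 mice. Transcripts of the ligands could not be compared at this depth.

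The rest of the pathway gave calls in both directions at 9 h. Of 48 other type I interferon-induced genes tested, 10 rose and 6 fell, with a median of 0.01. Cxcl10, a chemokine that draws T cells, rose by 1.99, and Rsad2 (0.55), Ifit1bl1 (0.46) and Herc6 (0.26) rose too, whereas Ifi44 (-0.62), Uba7 (-0.58), which activates ISG15, Sp100 (-0.37) and Slfn5 (-0.25) fell. These 16 of 48 stood beside the 26.5% called among all genes. Cxcl10 had a median count of 6 and was at 0 in 12 mice, so its value rests on few counts. Of 15 guanylate-binding proteins and immunity-related GTPases, Gbp2 (0.37) and Irgm1 (0.36) rose. Tgtp1 (-0.81), Tgtp2 (-0.53), Gbp4 (-0.52) and Gbp9 (-0.52) fell, which made 6 of 15 beside the same 26.5%. Tgtp1 and Tgtp2 had fractional median counts (24.88 and 31.58), as happens when reads fit more than 1 gene. Their falls may therefore not be separate.

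Among 15 nucleic acid sensors and relay genes at 9 h, Cgas (0.58), which senses DNA in the cytosol, Tlr7 (0.47) and Rigi (0.24), both sensors of RNA, rose, and Sting1 (-0.22), which acts downstream of cGAS, fell. Of 11 receptor and signalling genes Socs3 (0.40), an inhibitor of cytokine signalling, and Ifngr1 (0.14) rose, and of 19 class I antigen presentation genes H2-D1 (0.17) rose. These were 4 of 15, 2 of 11 and 1 of 19, beside 26.5% of all genes.

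At 24 h the genes of these lists that rose were Ifi204 (0.90), 1 of 51 other interferon-induced genes, and Erap1 (0.16), a peptidase that trims peptides for class I molecules and 1 of 19 class I genes, beside 1.96% of all genes. At 72 h 3 of 19 class I genes rose, H2-K1 (0.23), H2-D1 (0.22) and B2m (0.18), which form the class I complex, and the list's median was 0.18, beside 0.717% of all genes called. Gbp2 (0.38), Irf8 (0.29), a transcription factor of myeloid cells, Ifi27l2a (0.86) and Lgals3bp (0.41) also rose. The median count per mouse was 6.85 for Ifi204 and 7 for Ifi27l2a, so their values rest on few counts. Ifi27l2a lies across Ifi27 on the other strand, and Ifi27 itself was at 0.18 and did not pass.

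**Figure D5:**
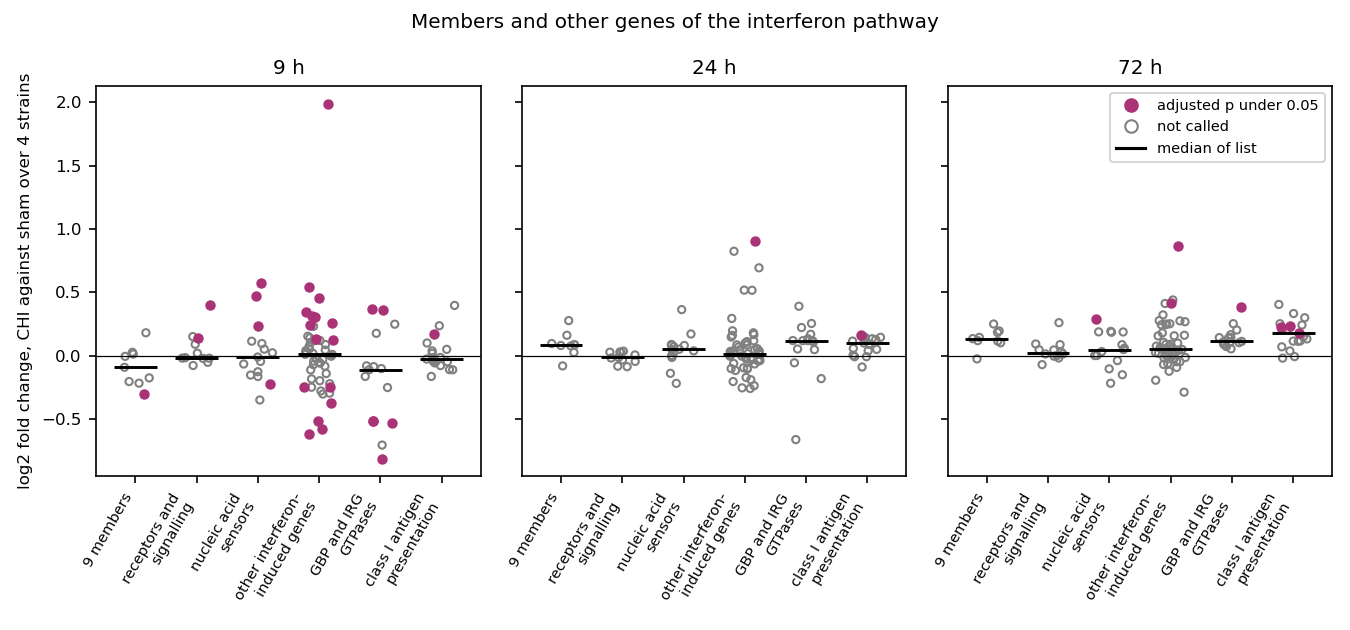
Log2 fold change of CHI against sham mice over the 4 strains for each gene of the 9 members and 5 related lists at 9, 24 and 72 h, filled where the adjusted p was under 0.05, with a line at each list's median. Filled points lie on both sides of 0 at 9 h, while at 72 h class I genes have a median of 0.18 with 3 of 19 filled.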

How the data were processed

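RNA was extracted from 1 hemisphere per mouse and sequenced as poly(A)-selected paired-end libraries. The authors ran STAR on trimmed reads against GRCm39, with Salmon for quantification, and the submitters' processing notes also list FastQC and DESeq2. The annotation release and the strandedness are not given in the sources used here. The authors deposited estimated counts per gene, which are partly fractional and carry no scaling. A second table that the authors deposited holds TPM values, scaled by Salmon for transcript length and library size, which were used only for levels. All sample columns were used (0 were left out), and groups came from the sample labels. The labels carry no replicate number, so replicates were numbered in accession order.

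The test was edgeR 4.0.16 in R 4.3.3, a robust quasi-likelihood fit on rounded counts with TMM factors. A gene was kept if the number of mice with 10 or more counts reached the size of the smallest group. Covariates were sex and age, and strain where strains were combined. P-values were adjusted by Benjamini–Hochberg over all genes tested, and a gene was called under 0.05. CPM values used TMM library sizes, and scores added a prior count of 1. The p-values measure the spread between mice, and the floors cover counting error only. Of 879 pairs of mice within a group, none agreed within sampling noise. The fitting code was tested on simulated data.

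The 9 members and the related lists were chosen with earlier results of these data known. All members were described. From each related list the genes called over the 4 strains were named, up to 4 per direction and time point by smallest p, and of all other genes the 10 most correlated with the members, of which 1 is not reported here. Marker genes named singly were picked after their values were seen. Alternatives were DESeq2's size factors in edgeR, DESeq2 1.42.0 with and without gene-length offsets, no filter, no covariates, experiment in place of age, each experiment alone, each strain left out, and each of 67 sham mice left out in turn. Chosen after seeing the data were the sum of Ifit3 and Ifit3b and the removal of the experiment NiL-1-21 or of 1 sham mouse at 9 h that stood apart. Gene positions are from GENCODE, which held 98.9% of the gene IDs.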

Additional observations from a re-analysis of the deposited data

Results flagged for a closer look

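In 17 combinations of gene and group (11.8% of those examined, 9 genes in 16 groups of 4 to 10 mice), the highest or lowest mouse lay far from the rest of its group, where chance gives about 1 in 20. They fell in 11 of the 16 groups. High mice were eRestore sham replicate 3 at 9 h in Ifi27 (27.1 CPM, group median 16.3), eRestore sham replicate 3 at 72 h in Ifi27 (17.0 CPM), nRestore CHI replicate 3 at 24 h in Irf7 (1.77 CPM), eRestore CHI replicate 2 at 24 h in Oasl2 (7.29 CPM, group median 3.24), C57BL/6J sham replicate 2 at 72 h in Oasl2 (4.68 CPM), gKO sham replicate 6 at 24 h in Rtp4 (2.67 CPM) and gKO sham replicate 6 at 9 h in Usp18 (1.02 CPM).

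Low mice at 24 h were C57BL/6J sham replicate 3 in Bst2 (0.695 CPM), gKO sham replicate 2 in Bst2 (0.894 CPM), nRestore CHI replicate 7 in Ifit3 (6.7 CPM) and C57BL/6J sham replicate 2 in Irf7 (0.653 CPM). At 9 h they were eRestore sham replicate 1 in Irf7 (0.104 CPM, from 2 counts), nRestore CHI replicate 4 in Isg15 (0.212 CPM), nRestore sham replicate 4 in Isg15 (0.16 CPM) and nRestore CHI replicate 5 in Usp18 (0.287 CPM). At 72 h they were eRestore sham replicate 4 (0.366 CPM) and nRestore sham replicate 3 (0.312 CPM), both in Irf7. Several of these values rest on few counts.

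The CHI effect on Ifi27 also differed between time points: it was higher at 72 h than at 9 h by 0.39 on the log2 scale in the contrast over all 200 mice (edgeR adjusted p = 0.0027). This was 1 of 9 members called, beside 15.6% of all genes. The 2 time points share no experiment and no time of day. Choroid plexus and ependyma markers had a median CHI effect of -1.44 at 9 h and 0.08 at 72 h, and without eRestore sham replicate 3 at 9 h the difference of Ifi27 was 0.32 (edgeR adjusted p = 0.0121). The part of these markers was not tested.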

How the results depend on the processing

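No paired analysis was possible because the labels carry no replicate numbers, and the numbers used here follow accession order.
Over all alternatives run, 9 counts of called members moved and 280 did not, and of the single-gene values 459 kept direction and side of the threshold, 58 turned direction, 9 came past the threshold and 5 dropped below it. None of the 58 was past the threshold in the values reported except Oasl2 at 9 h, and the cause was not tested. Over the 4 strains at 9 h, 1 member was called. None was called with gene-length offsets (Oasl2 -0.29, DESeq2 adjusted p = 0.0864), without C57BL/6J (-0.28, edgeR adjusted p = 0.149), or in eIL-1-76 or eIL-1-80 alone, and 2 were called without gKO, where Ifi27 passed at -0.34, and 2 without eRestore sham replicate 3, where Ifit3 passed at 0.21 and Ifit1 turned to 0.0108. Ifit3 passed without eRestore (0.29) and in TM-2-33 alone (0.50). At 72 h 1 member was called without gKO, Ifi27 at 0.24. Without covariates 1 member was called from 9 to 24 h (Oasl2 0.53) and 2 from 9 to 72 h, with Oasl2 at 0.46, and Oasl2 turned to -0.075 from 24 to 72 h.

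Values over the 4 strains that turned direction were, at 9 h, Irf7 -0.092 and Usp18 -0.015 with length offsets. Without C57BL/6J Irf7 was -0.042, without gKO Usp18 was -0.082 and Ifit1 0.051, and without eRestore Rtp4 was 0.0084 and Ifit1 0.047. Ifit1 was 0.0019 without the filter, 0.0105 without covariates and 0.017 with experiment in place of age. In eIL-1-76 alone Irf7 was -0.20 and Usp18 -0.13, and in eIL-1-80 alone Usp18 was -0.17 and Isg15 0.079. In TM-2-33 alone, which held only gKO and nRestore mice, Oasl2 was 0.0775, Rtp4 0.22, Ifit1 0.23, Isg15 0.33 and Bst2 0.20. At 24 h Irf7 was -0.085 with length offsets and Ifi27 0.011 without covariates. With experiment in place of age Oasl2 was -0.038, Isg15 -0.027 and Bst2 -0.022, without nRestore Oasl2 was -0.0101 and Usp18 -0.022, without gKO Isg15 was -0.032, and without C57BL/6J Bst2 was -0.085. In NiL-1-24 alone Irf7 was -0.056, Oasl2 -0.28, Usp18 -0.21, Rtp4 -0.14, Isg15 -0.19 and Bst2 -0.23. At 72 h Irf7 was -0.065 with length offsets, and in eIL-1-38 alone Irf7 was -0.093, Usp18 -0.032, Ifit1 -0.014 and Isg15 -0.042. In nIL-1-60 alone Usp18 was -0.20 and Rtp4 0.39, in eIL-1-56 alone Rtp4 was 0.21, Ifit1 -0.075 and Ifit3 -0.0485, and Rtp4 was 0.061 without eRestore and 0.0063 without NiL-1-21.

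Within strains at 9 h, Ifi27 was -0.049 in gKO and 0.0031 in nRestore with length offsets, and Oasl2 was -0.015 in nRestore without covariates. Leaving out 1 sham mouse at a time gave Ifi27 -0.21 to 0.045 in C57BL/6J mice, -0.0845 to 0.095 in gKO and -0.73 to -0.42 in eRestore, and gave Oasl2 -0.24 to 0.047 in gKO and -0.10 to 0.50 in nRestore. The number of genes called over all genes also moved by more than 1.5 times between settings. With all mice kept, it ran over the 4 strains from 3765 to 5051 at 9 h (4406 as reported). At 24 h it ran from 212 to 473 (327). In single experiments, which hold fewer mice, it fell to 334 at 9 h in TM-2-33, which held only gKO and nRestore mice. It was 0 at 24 h in NiL-1-24 alone and 0 at 72 h in eIL-1-56 alone. Within strains it ran from 30 to 333 in C57BL/6J at 24 h (67) and from 0 to 41 at 72 h (0), from 21 to 218 in gKO at 9 h (33), and from 736 to 1991 (1222) at 9 h and 0 to 93 (0) at 24 h in eRestore, and it reached 806 in nRestore at 9 h. Between sham mice of 2 strains it reached 870, for gKO at 24 h. Low counts of Usp18, Isg15 and Irf7 limit what these data can show for them.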
